A study of Homo sapiens with 12 samples.

Results

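CHI3L1, CHIT1 and CHI3L2 are 3 human genes of the chitinase family, glycosidase family 18. They were taken by symbol as 3 rows of a table of 36601 genes. They were chosen by their measured levels in these libraries, since CHI3L1 and CHIT1 reached very high read counts at the end of the series, so their levels and differences below are descriptions without a test. All 3 passed the filter on low counts, which left 20183 genes. CHIT1 had 0 counts on the first day and passed it only through the later days.

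Family 18 enzymes cut chitin, a polymer of N-acetylglucosamine that insects, fungi and nematodes make and mammals do not. CHIT1 encodes chitotriosidase, an active chitinase secreted and stored in lysosomes by macrophages, and best known as the plasma marker of the lipid-filled macrophages of Gaucher disease. CHI3L1 and CHI3L2 encode chitinase-like lectins that keep the fold and a sugar-binding cleft but have lost catalysis. CHI3L1 protein is secreted by macrophages, by neutrophils (from the specific granules), by cartilage and synovial cells and by reactive astrocytes, and CHI3L2 was first described in cartilage cells.

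RNA came from H9, a human embryonic stem cell line of wild-type genotype, under a cytokine-induced differentiation towards γδ T cells. There were 12 libraries in 4 groups of 3, all of 1 batch in the labels: day 10, labelled hematopoietic progenitor cells, days 15 and 20, both labelled T progenitor cells, and day 25, labelled mature γδ T cells. Every group had passed through CHIR99021, BMP4, Activin A and the ROCK inhibitor Y-27632, then VEGF and bFGF, then Flt3L, IL-7, SCF and SB431542, on stem cells grown with mouse feeder cells. From day 10 the medium held serum and DLL4, a ligand of Notch, beside SCF, Flt3L and IL-7. The labels name no sort and do not say whether the libraries of a day came from separate cultures, so p-values measure the spread between these libraries only, which may be technical. No group is an undifferentiated or untreated control.

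Libraries held 27026196 to 39811230 counts, with 22453 to 24771 genes counted at least once. Levels are CPM, a gene's counts per 1e+06 counts of the library, after scaling by edgeR's TMM factors. T-cell genes were low throughout: the summed level of 13 of them was 5.55 to 6.22 CPM at day 10, 29.8 to 32.8 at day 15, 43.8 to 47.5 at day 20 and 18.6 to 21.1 at day 25, and CD3D and CD3G had 0 counts at day 25. The summed level of 26 macrophage genes was 618 to 638 CPM at day 10, 2703 to 2898 at day 15, 10161 to 10613 at day 20 and 31746 to 32466 at day 25. The label of mature γδ T cells at day 25 thus stood beside libraries in which the macrophage list held far more reads than the T-cell list. In bulk RNA, fewer cells of a type and less RNA per cell cannot be told apart.

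The family's catalytic motif separates the genes by sequence. In GENCODE 29 coding sequence, a glutamate in the motif is the acid that cuts the sugar chain. The 30 coding bases around that codon are shown to tell the enzymes from the lectins, with the codon in capitals.
CHIT1: gacggccttgaccttgactggGAGtaccca
CHIA: gacgggctggactttgactggGAGtaccct
CHI3L1: gatgggctggaccttgcctggCTCtaccct
CHI3L2: gatggactggatgtaagctggATCtaccca
OVGP1: gatggtcttgaccttttcttcTTAtatcct

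CHIT1 and CHIA, the 2 active chitinases of the family, had a glutamate codon at codon 140 of 466 and 140 of 476. CHI3L1 had a leucine codon at 140 of 383, CHI3L2 an isoleucine codon at 145 of 390 and OVGP1 a leucine codon at 141 of 678. On GRCh38 the stretches lie at chr1:203223549-203223578 (minus strand, exon 5 of 11) for CHIT1, chr1:203183680-203183709 (minus strand, exon 5 of 10) for CHI3L1 and chr1:111234989-111235018 (plus strand, exon 5 of 11) for CHI3L2. The stretches of CHIA and OVGP1 lie at chr1:111315352-111315381 (plus strand, exon 6 of 12) and chr1:111423597-111423626 (minus strand, exon 5 of 11). Over the aligned residues of the encoded proteins, CHI3L1 and CHIT1 were 53.3% identical, CHI3L1 and CHI3L2 51.8% and CHIT1 and CHI3L2 53.1%. The authors' handling of reads that fit several family members is not given in the sources used here.

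CHI3L1 (ENSG00000133048) lies on the minus strand of chromosome 1, GRCh38, from 203178931 to 203186749. It had 9, 49 and 34 counts at day 10 (0.286, 1.23 and 1.15 CPM), and 3218, 2869 and 3771 counts at day 15 (136, 139 and 151 CPM). It had 27330, 29326 and 27158 counts at day 20 (831, 840 and 811 CPM), and 271922, 355121 and 275820 counts at day 25 (8567, 8558 and 8824 CPM). The libraries of the 4 days did not overlap, and every library of a day lay above every library of the day before. Replicate 1 of day 10 stood below its other 2 libraries.

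Day means of CHI3L1 were 0.887 ± 0.523 CPM at day 10, 142 ± 8.39 at day 15, 827 ± 14.8 at day 20 and 8650 ± 151 at day 25 (SD, n = 3 each). The fitted level was 155-fold higher at day 15 than at day 10, 5.83-fold higher at day 20 than at day 15 and 10.5-fold higher at day 25 than at day 20. Between days 25 and 10 the fitted fold was 9464, on a base of 92 counts in all at day 10. By the size of the fitted rise between days 25 and 10 it was number 18 of 20183 genes. That order includes genes with 0 counts at day 10, whose fitted rises depend on a small constant that edgeR adds to counts. For background, 73.2% of these genes differed between days 15 and 10 in either direction, 76.6% between days 20 and 15, 49.7% between days 25 and 20 and 74.5% between days 25 and 10 (edgeR, adjusted p under 0.05), and nothing is read from the members' separation against it.

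CHIT1 (ENSG00000133063) lies on the same strand of chromosome 1, from 203212827 to 203273641, with 26077 bases between the 2 genes and none annotated in between. It had 0 counts in each library at day 10. It had 157, 169 and 176 counts at day 15 (6.62, 8.17 and 7.07 CPM), and 764, 778 and 733 counts at day 20 (23.2, 22.3 and 21.9 CPM). At day 25 it had 17022, 21966 and 16715 counts (536, 529 and 535 CPM). The days did not overlap here either, and the step to day 25 was the steepest between days that both held counts.

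Day means of CHIT1 were 7.28 ± 0.795 CPM at day 15, 22.5 ± 0.683 at day 20 and 533 ± 3.63 at day 25 (SD, n = 3 each). The 0 counts of day 10 allow up to 3 counts over the day, or 0.0297 CPM, so CHIT1 was at least 244-fold higher at day 15 than at day 10 and at least 17950-fold higher at day 25 than at day 10. Such a bound covers counting error alone, because no molecular identifiers were used and reads need not be separate molecules. CHIT1 was 3.1-fold higher at day 20 than at day 15 and 23.7-fold higher at day 25 than at day 20. By the size of the rise between days 25 and 20, CHIT1 was number 39 and CHI3L1 number 120 of the 20183 genes. Any genes with 0 counts at day 20 stand in that order by the same added constant.

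CHI3L2 (ENSG00000064886) lies on the plus strand of chromosome 1, far from the pair, from 111200771 to 111243440. It had 11, 5 and 5 counts at day 10 (0.349, 0.125 and 0.169 CPM), and 31, 20 and 36 counts at day 15 (1.31, 0.966 and 1.45 CPM). It had 70, 97 and 55 counts at day 20 (2.13, 2.78 and 1.64 CPM), and 35, 60 and 21 counts at day 25 (1.1, 1.45 and 0.672 CPM). Its highest day was day 20, whose 3 libraries lay above all libraries of the other days, while days 15 and 25 overlapped.

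The fitted level of CHI3L2 was 5.83-fold higher at day 15 than at day 10, 1.75-fold higher at day 20 than at day 15 and 2.01-fold lower at day 25 than at day 20. CHI3L2 was thus lower at day 25 than at day 20, where CHI3L1 and CHIT1 were higher. The 5′ part of CHI3L2 overlaps DENND2D, a gene on the opposite strand at 111187174 to 111204535. The use of strand in counting is not given in the sources used here, so reads from the shared bases cannot be told apart. DENND2D had 10068 counts in all, against 446 for CHI3L2, and its day means were 4.72, 23.2, 27.7 and 49.4 CPM at days 10, 15, 20 and 25.

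**Figure D1:**
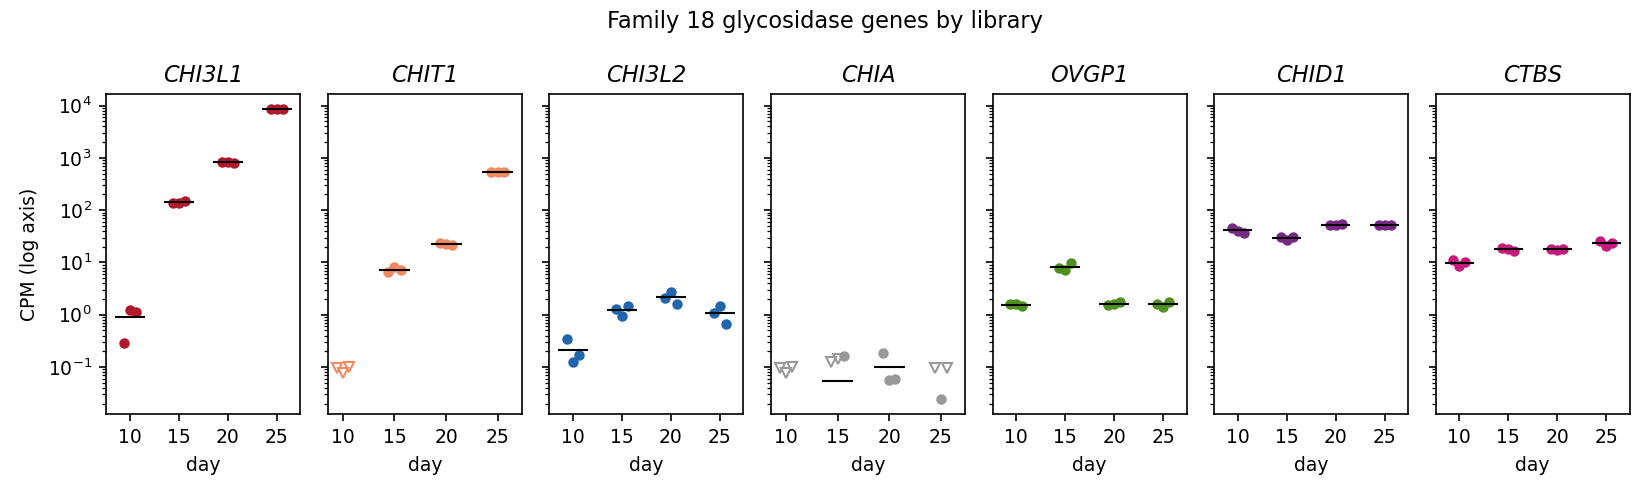
CPM on a log axis by day for 7 family 18 genes, with 1 filled point per library and a black line at the day mean; open triangles mark libraries with 0 counts, drawn at the level of 3 counts in that library, and the line is left off where the mean is below the axis. CHI3L1 and CHIT1 stand higher on each later day, with day 25 means of 8650 and 533 CPM, while CHI3L2 is highest at day 20 with 2.18 CPM.

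Within a library, CHI3L1 went up the ranks until it was among the most counted genes. Ranked by CPM among all genes, it was number 17120, 13659 and 13783 in the libraries of day 10, number 1991, 1950 and 1783 at day 15, number 68, 66 and 68 at day 20 and number 3, 3 and 2 at day 25. It took 0.891%, 0.892% and 0.911% of the counts of the day 25 libraries. By mean CPM at day 25 it followed MT-CO1 (18177 CPM, a mitochondrial gene) and FN1 (8832 CPM, fibronectin), and was ahead of ACTB (8193 CPM) and SPP1 (8158 CPM, osteopontin).

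CHIT1 was number 10824, 10267 and 10678 at day 15, number 7358, 7504 and 7555 at day 20 and number 170, 176 and 171 at day 25. CHI3L2 stayed between number 13087 and number 19255 in all 12 libraries. Long genes collect more reads, so ranks were also taken by CPM per kilobase of exon. This length counts every annotated exon base, 3408 for CHI3L1 and 7730 for CHIT1, where 1 transcript of each has 1792 and 2246. It therefore lowers CHIT1 more than CHI3L1. On that scale CHI3L1 was number 12, 11 and 12 at day 25, CHIT1 number 428, 430 and 437, and CHI3L2 between number 15213 and number 17522.

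**Figure D2:**
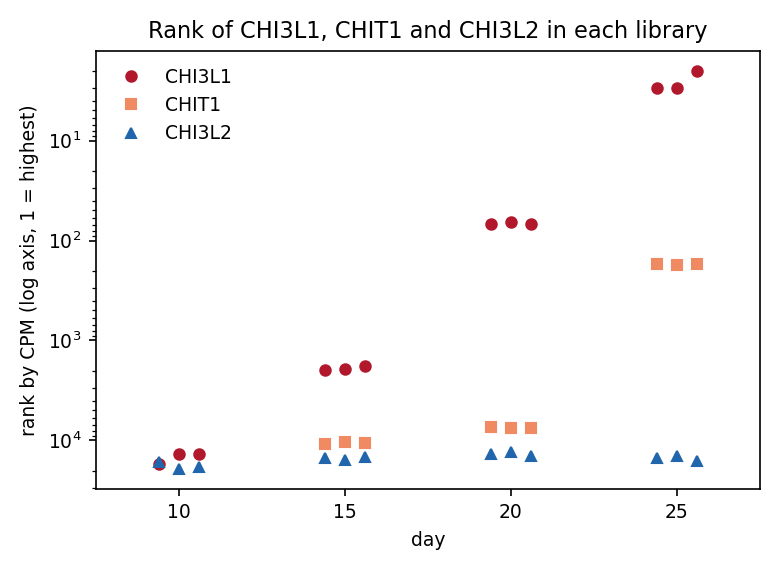
Rank of CHI3L1, CHIT1 and CHI3L2 by CPM among all genes in each library, by day, on a log axis with rank 1 at the top; 1 point is 1 library, and CHIT1 is not drawn at day 10, where it had 0 counts. CHI3L1 reaches ranks 2 and 3 and CHIT1 ranks 170 to 176 at day 25, while the best rank of CHI3L2 is 13087.

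The ratio of CHI3L1 to CHIT1 was not the same on all days. Per base of 1 transcript of each gene, CHI3L1 was 25.7, 21.3 and 26.9 times the level of CHIT1 at day 15, 44.8, 47.2 and 46.4 times at day 20, and 20, 20.3 and 20.7 times at day 25. The ratio was highest at day 20 and lowest at day 25, and the libraries of the 3 days did not overlap. Days 15 and 25 lay close, at 21.3 against 20.7 in their nearest libraries. The day 15 ratios rest on only 157 to 176 CHIT1 counts per library, so the order of these 2 days is uncertain. Summed over all 7 family genes, reads took 0.00549 to 0.00643% of a library at day 10, 0.0151 to 0.0164% at day 15, 0.107 to 0.109% at day 20 and 0.955 to 0.974% at day 25. Of the family's reads at day 25, CHI3L1 held 93.3 to 93.5% and CHIT1 5.67 to 5.84%.

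Per kilobase of exon, the other 4 family genes averaged at most 8.79 CPM at day 25 (CHID1), beside 2538 CPM for CHI3L1, 69 CPM for CHIT1 and 0.326 CPM for CHI3L2. Per kilobase of 1 transcript, CHI3L1 stood at 4781, 4776 and 4924 CPM and CHIT1 at 239, 236 and 238 CPM that day. CHIA, the acidic chitinase of lung and stomach, had 0, 4, 10 and 1 counts in all at days 10, 15, 20 and 25, too few to be tested. OVGP1, the oviduct glycoprotein, was highest at day 15, with 8.25 ± 1.48 CPM against 1.57 ± 0.0739 CPM at day 10 (5.25-fold higher, adjusted p = 3.1e-12 by edgeR's quasi-likelihood test with Benjamini-Hochberg adjustment), and averaged 1.64 CPM at day 20 and 1.57 CPM at day 25. CHID1, a chitinase-domain gene on chromosome 11, averaged 52.6 ± 0.278 CPM at day 25 and 41.1 ± 4.08 CPM at day 10 (1.28-fold higher, edgeR adjusted p = 4.7e-06). CTBS, the lysosomal chitobiase that trims the sugar stubs of glycoproteins, averaged 23.2 ± 2.21 CPM at day 25 and 9.98 ± 1.17 CPM at day 10 (2.33-fold higher, edgeR adjusted p = 2.6e-14). Its rise between days 25 and 20, 1.3-fold, was not called when libraries were scaled by their totals alone.

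A transcription start of CHI3L1 and of CHIT1 is shown because these neighbours lie on the same strand and both stood higher on each later day. Each window runs from 250 bases before to 50 bases after a start in RefSeq (GRCh38.p14), read on the minus strand, and capitals mark the motif matches counted below. The windows are chr1:203186655-203186954 for CHI3L1 and chr1:203229624-203229923 for CHIT1.
CHI3L1: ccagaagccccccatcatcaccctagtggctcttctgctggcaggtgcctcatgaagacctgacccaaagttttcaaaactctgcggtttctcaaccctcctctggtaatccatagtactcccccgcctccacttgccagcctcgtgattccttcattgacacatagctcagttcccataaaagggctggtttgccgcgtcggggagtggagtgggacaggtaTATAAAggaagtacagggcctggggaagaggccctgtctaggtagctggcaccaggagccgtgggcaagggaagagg
CHIT1: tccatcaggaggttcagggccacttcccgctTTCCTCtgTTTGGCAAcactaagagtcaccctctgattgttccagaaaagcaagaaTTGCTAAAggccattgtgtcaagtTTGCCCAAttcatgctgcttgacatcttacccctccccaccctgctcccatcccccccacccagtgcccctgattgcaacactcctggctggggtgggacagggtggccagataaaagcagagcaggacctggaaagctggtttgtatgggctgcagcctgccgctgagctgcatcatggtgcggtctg

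The CHI3L1 window held 1 TATA box (TATAAA, searched on the gene's strand), 27 bases before the start, which 7.71% of 27305 promoter windows hold. The CHIT1 window held the PU.1 core GAGGAA once (both strands, 27.6% of windows) and the C/EBP motif TTGCNNAA 3 times (both strands, 10.6% of windows). None of these matches overlaps another. The CHI3L1 window held neither of the last 2, and neither window held TGANTCA (AP-1), TTCNNNGAA (STAT) or CCGCCC (SP1), which 7.76%, 7.88% and 44.6% of windows hold on either strand. The windows of the 2 RefSeq starts of CHI3L2, not shown, each held TTGCNNAA and TTCNNNGAA once, and 1 of them held GAGGAA. A match is a run of letters and not a bound site, and no match says only that these letters are not in the window.

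The genes around the pair had courses of their own, whose difference from that of the pair was not tested. MYBPH, a muscle myosin-binding gene and the nearest on the side of CHI3L1, averaged 2.01, 58.9, 12.7 and 17.7 CPM at days 10, 15, 20 and 25, with its peak at day 15. Beyond it, ADORA1 stayed at 0.223 to 1.34 CPM and MYOG, a muscle transcription factor, had 5, 0, 2 and 150 counts in all on the 4 days. On the side of CHIT1, BTG2, an anti-proliferative gene, averaged 76.4, 324, 190 and 308 CPM, while the non-coding LINC01353 and BTG2-DT both peaked at day 15, at 1.34 and 6.66 CPM. Around CHI3L2, PIFO averaged 0.479, 1.14, 1.37 and 2.18 CPM, CEPT1 30.2, 30, 44.4 and 50.9 CPM and DRAM2 33.7, 31.7, 51.6 and 70.1 CPM.

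Genes whose course over the 4 days lay closest to that of a member were found among 11617 genes with at least 10 CPM on their highest day. Likeness was the root mean square difference between centred day means of log2 CPM with a prior count of 2, over 4 days of 3 libraries that all genes share, and 8 genes were kept per member. For CHI3L1 they were CHIT1 (0.56), SPP1 (0.62), MMP12 (0.68), S100A12 (0.82), CD14 (0.86), AQP9 (0.9), ADAMDEC1 (0.92) and DDIT4L (0.93). With a prior count of 0.5, 4 of these 8 were again among the closest, CHIT1, SPP1, MMP12 and ADAMDEC1. The order then differed, with MSR1 (0.25), FABP4 (0.41) and FCMR (0.46) closest and CHIT1 at position 8 (0.64). Which gene lay closest to CHI3L1 thus depended on the prior count. SPP1 averaged 1.94, 391, 1927 and 8158 CPM at days 10, 15, 20 and 25.

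For CHIT1 the closest was MMP12, the macrophage elastase (0.27), at 0, 4.56, 19.6 and 499 CPM on the 4 days. CHI3L1 (0.56), the scavenger receptor MSR1 (0.82), the fatty acid carrier FABP4 (0.89), FCMR (0.9), SPP1 (0.92), ADAMDEC1 (1.0) and DDIT4L (1.13) followed. For CHI3L2 the 8 were OLIG2 (0.08), PRRT4 (0.12), GRAMD1B (0.13), PLD4 (0.14), IFI44L (0.2), ADGRG5 (0.2), IKZF2 (0.21) and TIFA (0.21), which all peaked at day 20. With a prior count of 0.5, 7 of the 8 for CHIT1 and 6 of the 8 for CHI3L2 were again among the closest. TRGC1 (0.19) and FAM107B (0.25) then stood among those of CHI3L2 in place of ADGRG5 and IKZF2. No gene was named for both CHI3L2 and either of the other members.

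**Figure D3:**
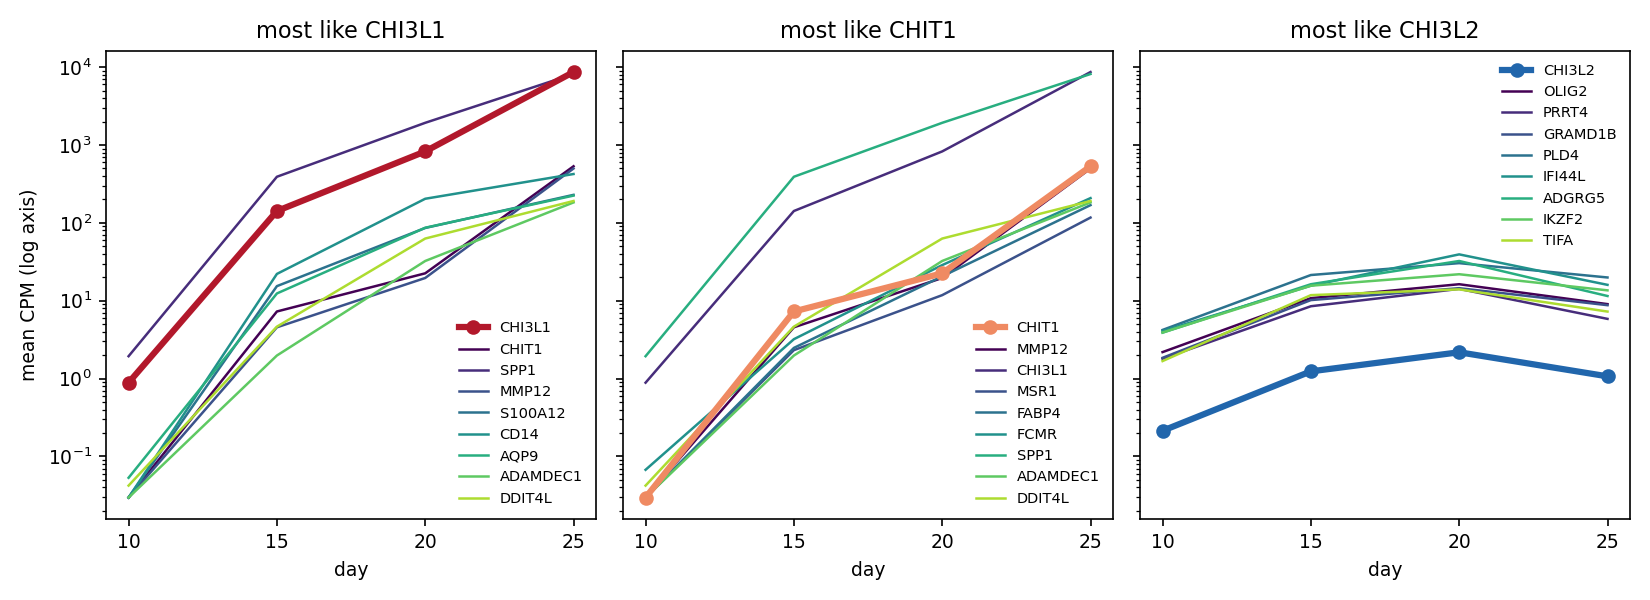
Mean CPM by day on a log axis for CHI3L1, CHIT1 and CHI3L2 (thick lines with points) and, in each panel, the 8 genes of closest course (thin lines); a day mean below the level of 3 counts over the day is drawn at that level. CHIT1 and MMP12 lie nearly on each other, at 533 and 499 CPM at day 25, and the genes closest to CHI3L2 peak at day 20.

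Counts of list genes below are read against all 20183 genes, of which 38.6% were higher and 36% lower at day 25 than at day 10, and 24.5% higher and 25.1% lower at day 25 than at day 20 (edgeR, adjusted p under 0.05). The median log2 fold change over all genes was 0.02 and -0.03 in these comparisons, which share the day 25 libraries. Of all called genes, 51.7% were higher at day 25 than at day 10 and 49.4% at day 25 than at day 20. Scaled by library totals alone, these shares were 48.7% and 31.5%, and the medians over all genes -0.05 and -0.19.

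The known binding partners and receptors of CHI3L1 protein moved in both directions. Of 6 tested, 4 were higher and 1 lower at day 25 than at day 10 (median log2 fold change 1.86), and 3 were higher and 1 lower at day 25 than at day 20 (median 0.15). That 1 was 2 without replicate 3 of day 20 or of day 25, where AGER was lower too, and 3 with library-total scaling. LGALS3, the galectin that binds CHI3L1 and also recognises chitin, averaged 160 ± 1.71 CPM at day 25 and 2.17 ± 0.361 CPM at day 10, 74.7-fold higher (adjusted p = 1.9e-43). CD44, a receptor for hyaluronan and CHI3L1, averaged 56.1 ± 2.84 CPM at day 10, 482 ± 4.2 CPM at day 20 and 478 ± 9.76 CPM at day 25, 8.5-fold higher at day 25 than at day 10 (adjusted p = 1.7e-44) and with adjusted p = 0.81 between days 25 and 20.

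SDC1, the syndecan through which CHI3L1 acts on endothelium, averaged 15.1 ± 1.87 CPM at day 25 and 3.49 ± 0.721 CPM at day 10, 4.34-fold higher. PTGDR2, a prostaglandin receptor that also binds CHI3L1, peaked at day 20 and averaged 16.7 CPM at day 25 and 31.3 CPM at day 20, 1.87-fold lower (edgeR adjusted p = 3.7e-11). TMEM219, the partner of the IL-13 receptor chain IL13RA2 in CHI3L1 signalling, averaged 63.2 CPM at day 25 and 61.5 CPM at day 10 (adjusted p = 0.51). IL13RA2 itself, the chain that binds CHI3L1, had 0, 12, 7 and 30 counts on the 4 days and was not tested. AGER, a receptor for advanced glycation products, averaged 8.98 CPM at day 25 and 15.3 CPM at day 10, 1.7-fold lower (edgeR adjusted p = 2.6e-08).

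Receptors that sense chitin were mostly higher at day 25 than at day 10, but not than at day 20. Of 8, 6 were higher and 1 lower at day 25 than at day 10 (median 5.88), and between days 25 and 20 only 2 were higher and 4 lower (median -0.19). TLR2, a receptor of microbial lipoproteins, averaged 0.544 ± 0.208 CPM at day 10, 141 ± 2.76 CPM at day 20 and 107 ± 2.08 CPM at day 25. CLEC7A (dectin-1), the beta-glucan receptor, averaged 0.953 ± 0.275, 89.9 ± 3.03 and 138 ± 3.47 CPM on those days and was higher at day 25 than at day 20 (1.53-fold, adjusted p = 1.2e-13). NOD2, the sensor of bacterial muramyl peptides, averaged 0.247 CPM at day 10, 16.9 CPM at day 20 and 16.4 CPM at day 25.

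The lysosomal glycosidases, among which CHIT1 is stored, were higher at day 25 than at day 10 in 12 of 12 genes (median 2.01), and 9 of them were higher and 2 lower at day 25 than at day 20 (median 0.49). The 2 that fell to day 25 were lysozyme, LYZ, with 2442 ± 81.1 CPM at day 25, against 3517 ± 75.9 CPM at day 20, and the fucosidase FUCA1, with 353 CPM, against 388 CPM. Between days 25 and 10, LYZ was 45.9-fold and FUCA1 33.1-fold higher.

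Of the cytokines known to induce family members, IL4, IL13 and IFNG had at most 19 counts over a day and were not tested. Of the 15 tested genes of their pathways, 12 were higher and 2 lower at day 25 than at day 10 (median 1.76), and 9 were higher and 3 lower at day 25 than at day 20 (median 0.26). With library-total scaling, 6 rather than 3 were lower at day 25 than at day 20. The 2 lower at day 25 than at day 10 were IL6ST, with 180 against 267 CPM, and STAT3, with 263 against 302 CPM. The receptors IL4R and IL13RA1 averaged 187 and 201 CPM at day 25 and 101 and 92.5 CPM at day 20 (adjusted p = 2.3e-18 and 5.3e-24), and IL6R 275 and 199 CPM. STAT6, which carries the IL-4 and IL-13 signal, averaged 289 ± 7.14 CPM at day 25 and 94.8 CPM at day 10 (3.04-fold higher, edgeR adjusted p = 8.4e-34). IL1R1 was 17-fold higher at day 25 than at day 10, with 41.4 CPM at day 25. OSM, also called higher, averaged 9.46 CPM at day 25 and had 10 counts in all at day 10, in 1 of its 3 libraries. IL6, an inducer of CHI3L1, and IL1B were lower at day 25 than at day 20, with 0.152 and 2.65 CPM for IL6 and 23.8 and 150 CPM for IL1B on those days.

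Myeloid transcription factors were higher at day 25 than at day 10 in 12 of 12 genes (median 4.66), and 7 were higher and 1 lower at day 25 than at day 20 (median 0.27). The 1 was 4 with library-total scaling. Among the 12, SP1 was only 1.06-fold higher (edgeR adjusted p = 0.031), and was not called with library-total scaling or without replicate 1 of day 10, replicate 2 of day 25 or replicate 3 of day 25. SPI1 is the gene of PU.1, which is among the factors reported to bind the CHI3L1 promoter. SPI1 averaged 55.3 CPM at day 10, 398 CPM at day 20 and 505 ± 16.1 CPM at day 25. IRF8, a factor of monocyte development, averaged 2.31, 76.6 and 95.3 CPM on these days. CEBPD and CEBPE were 39.2-fold and 38.4-fold higher at day 25 than at day 10, while their levels at day 25 and day 20 gave adjusted p = 0.34 and 0.2.

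Lists of the cell types known to express the members were set beside them, and their part in the course of CHI3L1, CHIT1 and CHI3L2 was not tested. Of 26 macrophage genes, 25 were higher and none lower at day 25 than at day 10 (median 5.91), and 25 were higher and 1 lower at day 25 than at day 20 (median 1.87). The 1, CCL18, averaged at most 0.391 CPM on any day, and was not called without replicate 1 or replicate 2 of day 25. MMP12 was at least 16786-fold and MSR1 at least 3920-fold higher at day 25 than at day 10, where both had 0 counts. CD14 averaged 424 ± 5.18 CPM at day 25, against 204 CPM at day 20, and GPNMB, a glycoprotein of lipid-filled macrophages, 1776 ± 37.9 and 635 CPM. Among the lipid-handling genes of the list, LPL averaged 873 CPM at day 25, against 158 CPM at day 20, and LIPA 3200 CPM, against 746 CPM.

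Neutrophil granule genes were higher at day 25 than at day 10 in 12 of 12 (median 10.0, or 8.55 with the 4 genes at 0 on day 10 at their bound), and also at day 25 than at day 20 in 12 of 12 (median 0.99). Their summed level was 18.6 to 24.2 CPM at day 10, 782 to 812 at day 15, 1073 to 1091 at day 20 and 1978 to 2028 at day 25. LTF, lactoferrin, averaged 396 ± 5.36 CPM at day 25 and 133 CPM at day 20. CAMP was at 136 and 54 CPM, MMP8 at 126 and 31.6 CPM and CEACAM8 at 99.4 and 53.5 CPM on these days. Between days 25 and 20, CRISP3 was not called without replicate 1 or 2 of day 20 or replicate 3 of day 25, nor TCN1 without replicate 2 of day 20, and neither was called with library-total scaling.

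Cartilage, stromal and astrocyte genes moved in both directions between days 25 and 20. Of 11 cartilage and synovial genes tested, 2 were higher and 4 lower (median -0.41), and the 2 became 1, SOX9, without any 1 of 5 libraries or with library-total scaling. Their summed level was 92.9 to 99.9 CPM at day 10, 49.7 to 52.5 at day 15, 183 to 200.0 at day 20 and 112 to 120 at day 25. Between days 25 and 10, 7 were higher and 2 lower (median 0.97), with CILP at 1.39 and 0.0771 CPM, COL9A1 at 1.81 and 0.173, ACAN at 3.63 and 0.803 and HAPLN1 at 2.15 and 19.5. The count of 2 lower was 1 without replicate 2 of day 10 or replicate 1 of day 25.

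Stromal genes were higher at day 25 than at day 10 in 10 of 10 (median 1.93), and 4 were higher and 5 lower at day 25 than at day 20 (median -0.1). Their summed level was 1144 to 1171 CPM at day 10, 1567 to 1639 at day 15, 6924 to 7035 at day 20 and 4649 to 4732 at day 25. COL3A1, the highest of the list on each day, averaged 2222 CPM at day 25 and 4098 CPM at day 20. COL1A1 averaged 1277 and 1048 CPM on these days and COL1A2 733 and 852 CPM. DCN was at 154 and 381 CPM and TAGLN at 21 and 15.2 CPM. Of 7 astrocyte genes, 6 were higher at day 25 than at day 10 (median 2.46), and 3 were higher and 3 lower at day 25 than at day 20 (median -0.52). S100B was at 68.9 and 37.1 CPM at days 25 and 20, SLC1A3 at 74.4 and 20.1, SLC1A2 at 4.2 and 1.1 and GJA1 at 91.5 and 164, while GFAP, the defining astrocyte gene, was at 0.229 CPM at day 25. Their summed level was 33.3 to 37.4 CPM at day 10, 49.9 to 53.1 at day 15, 224 to 234 at day 20 and 236 to 247 at day 25.

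Of 9 T-cell genes tested, none was higher and 5 were lower at day 25 than at day 20 (median -1.3), while 6 were higher and 1 lower at day 25 than at day 10 (median 1.85). Without replicate 3 of day 10, 2 were lower at day 25 than at day 10. TRGC1 and TRGC2, constant genes of the γ chain that are nearly identical and may share reads, averaged 10.0 and 4.9 CPM at day 25, against 24.7 and 13.9 CPM at day 20. Of these 5, ZAP70 was not called without replicate 2 or 3 of day 20 or replicate 3 of day 25.

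**Figure D4:**
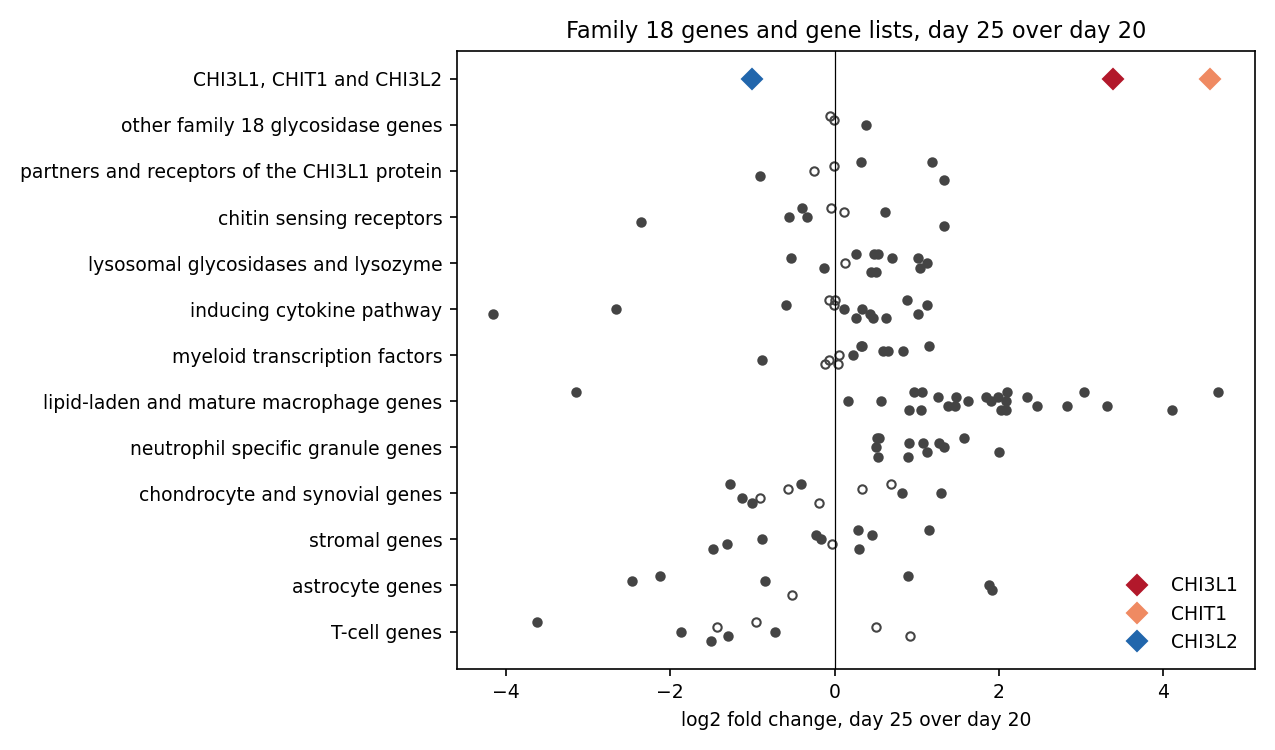
Log2 fold change of day 25 over day 20 for CHI3L1, CHIT1 and CHI3L2 (diamonds, not tested) and for the tested genes of 12 lists, 1 list per line; filled circles passed edgeR's test at an adjusted p under 0.05 and open circles did not, and the vertical line marks no change. CHIT1 is at 4.57, CHI3L1 at 3.39 and CHI3L2, on the other side of the line, at -1.01. CHI3L1 and CHIT1 were chosen for their high counts at the end of the series, so nothing is read from their place beside the lists.

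Macrophage and neutrophil granule genes were mostly higher at each earlier step too. Between days 15 and 10, where 42.4% of all genes were higher and 30.8% lower (median 0.2), CHI3L1 was 7.28 higher on the log2 scale, 22 of 26 macrophage genes were higher and 4 lower (median 3.0), and 12 of 12 neutrophil granule genes were higher (median 8.06, or 6.12 with genes at 0 at their bound). Between days 20 and 15, where 40.6% were higher and 36% lower (median 0.1), CHI3L1 was 2.54 and CHIT1 1.63 higher on the log2 scale, 24 macrophage genes were higher and 1 lower (median 2.39), and 10 granule genes were higher and 2 lower (median 1.59). The 2 were 1 with library-total scaling. Of all called genes, 57.9% were higher at day 15 than at day 10 and 53.0% at day 20 than at day 15. With library-total scaling these shares were 39.2% and 72.1%, and the medians over all genes -0.32 and 0.73. That scaling put the rises between days 20 and 15 at 3.16 for CHI3L1, 2.25 for CHIT1 and 1.43 for CHI3L2, against 0.81 for CHI3L2 after TMM.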

How the data were processed

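The members and the 12 gene lists were chosen with earlier results of these data known. The authors deposited raw counts per gene and library, not normalised, per the file headers. RNA was total RNA, made into LM-Seq libraries and read as single reads on a NovaSeq, per the labels' protocols. The submitters' processing notes name GRCh38 as the build. Aligner, counter, annotation and strand: not given in the sources used here.

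Of 36601 gene IDs, 36366 had a symbol, and the 235 without one held 0.091% of counts. Coordinates, exon lengths and coding sequence came from GENCODE 29, where 34616 IDs matched.

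Counts were fitted with edgeR 4.0.16 in R 4.3.3 (filterByExpr with a minimum count of 10, TMM factors 0.753 to 1.172, a robust quasi-likelihood fit over all 12 libraries, common biological coefficient of variation 6%). Calls used a Benjamini-Hochberg adjusted p under 0.05 over 20183 genes. Every adjusted p in the text is from this test. A day at 0 counts took a floor of 3 counts over the day, 0.0287 to 0.0433 CPM. The fit was also run on simulated counts with the same spread for all genes. Far fewer genes changed there than were called here, so nothing about these calls is drawn from it. Proteins were aligned with Biopython 1.88 (gap penalties 11 and 1), and tables used Python 3.11.15, numpy 2.4.6 and pandas 2.3.3.

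Named were all family 18 genes, the 3 annotated genes on each side of the pair and of CHI3L2, up to 4 called genes per list with the largest change between days 25 and 10 and at least 1 CPM, list genes with a known role for the members, and 8 genes per member by likeness. Some of these genes are not reported here. CCL18, LPL, LIPA, CTSD, CD9, IL6ST, STAT3, COL3A1, SOX9, GFAP, CD3D and CD3G were named after their values were seen. Alternatives were DESeq2 1.42.0, other scalings, filters and thresholds, pairs of days fitted alone, a replicate block and leaving out each library. The columns had no values outside these samples.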

Additional observations from a re-analysis of the deposited data

How the results depend on the processing

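No log2 difference of CHI3L1, CHIT1 or CHI3L2 changed direction under any alternative run. Scaling by library totals alone gave 3.16 (days 20 and 15) and 3.22 (25 and 20) for CHI3L1, 7.4 (15 and 10), 2.25 (20 and 15), 4.41 (25 and 20) and 14.06 (25 and 10) for CHIT1, and 1.43 (20 and 15) for CHI3L2. The rank of the day 25 mean was 12 for CHI3L1, 431 for CHIT1 and 16127 for CHI3L2 by CPM per kilobase of exon, and 2 for CHI3L1 and 157 for CHIT1 leaving aside haemoglobin, ribosomal protein and mitochondrial genes. Leaving out 1 library at a time gave, for days 15 and 10, 20 and 15, 25 and 20, and 25 and 10 in that order, 6.88 to 7.64, 2.51 to 2.6, 3.37 to 3.4 and 12.82 to 13.58 for CHI3L1, 7.2 to 7.99, 1.57 to 1.71, 4.55 to 4.6 and 13.41 to 14.14 for CHIT1, and 2.23 to 3.06, 0.6 to 0.98, -1.29 to -0.77 and 2.04 to 2.87 for CHI3L2. The CHIT1 bound against day 10 was lower without a day 10 library because 3 counts are then set against fewer reads. Genes called ranged over 14340 to 14930, 15058 to 15684, 9133 to 10153 and 14600 to 15286, beside 14776, 15468, 10023 and 15045 with all libraries. With the replicate number as a block they were 14592, 15301, 9760 and 14873, and the CHI3L1 difference between days 25 and 20 was 3.39; no pairing was seen, since 0 of 18 same-numbered pairs of libraries had deviations correlated above 0.1 (range -0.016 to 0.016). List counts changed by more than 1.5 times in 0 of 96 cases each with DESeq2's size factors, DESeq2's test and the block, in 15 with library-total scaling and in 17 of 1152 without a library; smaller changes occurred, as with IL6, called higher between days 25 and 10 by DESeq2. Calls of TNF, RELA, PDGFRA and THY1 (days 25 and 20) and of SOX5, ALDH1L1 and TRDC (days 25 and 10) were each lost without at least 1 of the libraries. CHI3L2 rests on 21 to 222 counts per day, which limits the precision of its values.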
